A study of Mus musculus with 4 samples.

Results

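The genes described here are 5 homeobox genes of the Rhox cluster, Rhox1, Rhox5, Rhox6, Rhox9 and Rhox13, out of 37224 genes with deposited values. They were taken by symbol and were selected on known results, their counts and RPKM in Smg6-deficient against wild-type cells, so their own differences are given as a description and without a test. RNA-seq libraries were made from mouse embryonic stem (ES) cells, the pluripotent cells derived from the early embryo. The 2 wild-type libraries came from cells that the submitters also call normal, and the other 2 came from cells labelled Smg6 deficient. Smg6 is an endonuclease of nonsense-mediated mRNA decay. The labels name no sex, strain, culture condition, clone or targeting method for either genotype, and they do not say whether libraries of a genotype came from separate cultures. The spread between libraries may therefore be technical.

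Rhox genes encode homeodomain transcription factors and lie side by side on the X chromosome. They are known for expression in the testis, ovary, placenta and early germ cells, and several are kept silent in somatic cells by DNA methylation. Rhox5, also named Pem, is the founding gene and is known in Sertoli cells, placenta and ES cells. Rhox6 and Rhox9, also named Psx1 and Psx2, are known in placenta and germ cells. Rhox13 is known in male germ cells. The role of Rhox1 is less well defined and it is described here only as a cluster gene.

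In the GENCODE M21 annotation, which uses the mm10 assembly, the 5 genes are protein coding and span 916 kb of chromosome X. Rhox1 (ENSMUSG00000071773) lies at 37213804 to 37222258 on the minus strand, at the lower-coordinate end of the cluster. Rhox5 (ENSMUSG00000095180) lies at 37804842 to 37808876 on the plus strand, 582.6 kb beyond Rhox1. Rhox6 (ENSMUSG00000006200) follows 18.0 kb later at 37826910 to 37829857 on the plus strand. Rhox9 (ENSMUSG00000068048) lies at 37899097 to 37901770 on the minus strand. Rhox13 (ENSMUSG00000050197) lies at 38121219 to 38129967 on the plus strand and is the last of the 5; of the Rhox loci only the pseudogene Rhox7-ps1 lies beyond it. No other annotated gene overlaps any of the 5, so no annotated antisense gene shares their reads.

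Promoter windows of Rhox1, Rhox5 and Rhox13 are shown because these genes are known for control by DNA methylation, which acts on CG dinucleotides, and because all were lower in the Smg6-deficient libraries. Each is a 300-base window around the RefSeq gene start in GRCm38.p6, read 5′ to 3′ on the gene's strand, with CG in capitals. The windows are chrX:37222209-37222508 (minus strand) for Rhox1, chrX:37754358-37754657 (plus strand) for Rhox5 and chrX:38120590-38120889 (plus strand) for Rhox13. RefSeq starts Rhox5 50.2 kb before GENCODE does. The Rhox13 window also ends before the GENCODE start of that gene at 38121219. Only the Rhox1 window spans the GENCODE start of its gene, at 37222258.
Rhox1: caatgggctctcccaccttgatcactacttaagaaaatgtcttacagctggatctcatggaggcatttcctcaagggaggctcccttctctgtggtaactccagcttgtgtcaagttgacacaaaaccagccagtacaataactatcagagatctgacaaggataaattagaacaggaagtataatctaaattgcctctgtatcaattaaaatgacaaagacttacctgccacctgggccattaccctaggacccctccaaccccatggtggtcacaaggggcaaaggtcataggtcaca
Rhox5: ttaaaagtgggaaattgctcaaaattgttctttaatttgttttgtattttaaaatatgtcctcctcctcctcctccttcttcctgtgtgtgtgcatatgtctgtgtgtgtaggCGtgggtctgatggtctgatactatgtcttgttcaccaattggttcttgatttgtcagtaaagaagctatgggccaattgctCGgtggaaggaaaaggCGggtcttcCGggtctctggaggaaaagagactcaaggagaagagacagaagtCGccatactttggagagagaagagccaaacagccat
Rhox13: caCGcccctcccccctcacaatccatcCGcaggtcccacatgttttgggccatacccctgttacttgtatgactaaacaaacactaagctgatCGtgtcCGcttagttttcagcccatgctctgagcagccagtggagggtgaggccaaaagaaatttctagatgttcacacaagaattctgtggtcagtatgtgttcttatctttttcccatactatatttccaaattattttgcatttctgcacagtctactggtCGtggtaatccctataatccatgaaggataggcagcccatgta

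The Rhox1 window holds 0 CG dinucleotides, and the Rhox5 and Rhox13 windows hold 5 each. Over all 32851 RefSeq windows of the same length the median was 7, and 5.43% held none. The windows of 24 other Rhox genes held between 2 and 12, with a median of 7.5. The sequence GGCGGG, searched on both strands, occurs 1 time in the Rhox5 window and in neither of the others, against 35.3% of all windows with at least 1 match. CACGTG (7.15% of all windows) and GCGGGA (20% of all windows) were searched on both strands and are not in these 3 windows. GGCGGG and GCGGGA can overlap, and each was counted wherever it occurred. DNA methylation was not measured in these samples, so the windows describe the sequence only.

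**Figure D1:**
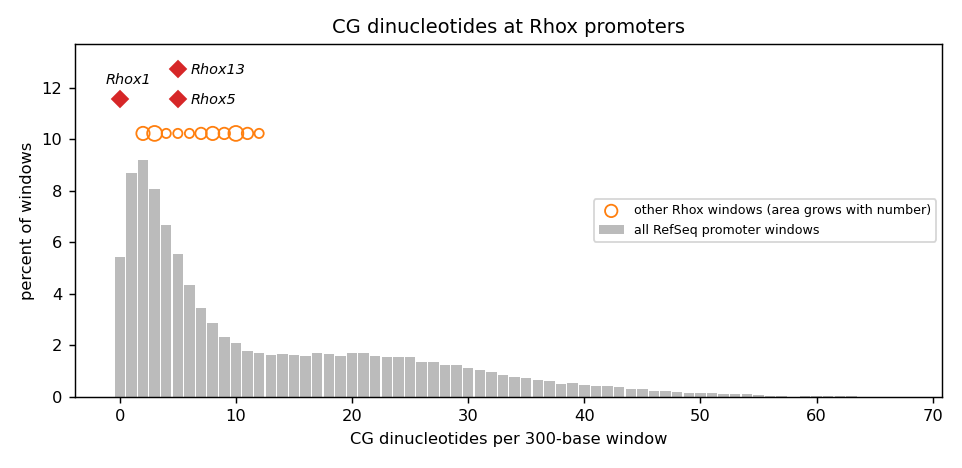
Number of CG dinucleotides per 300-base promoter window (x axis) against the percent of all 32851 RefSeq windows with that number (bars, y axis). Diamonds mark Rhox1 at 0 and Rhox5 and Rhox13 at 5; circles mark the 24 other Rhox windows, which lie between 2 and 12, and the heights of diamonds and circles carry no value.

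Rhox6 and Rhox9 are near copies of each other, which bears on how far their counts can be separated. Their coding sequences are both 684 bases long and share 620 bases (90.6% identity). The longest identical run covers 161 bases, from coding position 167 to 327. It is shown with 20 bases on each side, positions 147 to 347 counted from the A of the start codon, from GENCODE M21 transcripts, with the 7 differing bases in capitals.
Rhox6: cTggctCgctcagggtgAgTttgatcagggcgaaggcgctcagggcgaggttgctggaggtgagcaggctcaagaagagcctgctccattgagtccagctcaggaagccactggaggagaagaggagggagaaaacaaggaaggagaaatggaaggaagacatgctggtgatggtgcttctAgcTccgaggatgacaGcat
Rhox9: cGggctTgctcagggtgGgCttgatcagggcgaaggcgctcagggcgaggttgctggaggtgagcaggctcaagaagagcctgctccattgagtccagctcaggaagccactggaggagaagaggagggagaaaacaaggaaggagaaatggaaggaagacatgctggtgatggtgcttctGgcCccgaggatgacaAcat

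Of the 961 different 50-base windows in the Rhox6 transcript, the length of 1 read, 16.5% also occur in Rhox9. Of the 2531 windows in the Rhox9 transcripts, 6.28% also occur in Rhox6. No other gene shares a window with either, and Rhox1, Rhox5 and Rhox13 share 0 of 834, 705 and 827 windows with transcripts of another gene. How the authors assigned reads with several alignments is not given in the sources used here, so the split between Rhox6 and Rhox9 is uncertain to that extent.

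All 5 genes were lower in both Smg6-deficient libraries than in both wild-type libraries. Such a separation in the lower direction was seen in 35.9% of the 20895 genes tested and in 72.4% of the 1040 tested X-linked genes. The 5 genes together took 35726 and 28565 of the counts in wild-type replicates 1 and 2, and 7047 and 6818 in Smg6-deficient replicates 1 and 2. Library totals ranged from 130888768 to 155391181 counts. By edgeR's adjusted p, 39.7% of all tested genes were called in either direction and 19.2% were called lower. In the following, CPM are depth-scaled counts on the TMM-adjusted library size and means carry ± SD (n = 2). Log2 fold changes put the deficient cells over the wild type and carry the standard error (SE) of the edgeR fit to all genes. In bulk RNA, fewer cells that express a gene and less RNA per cell cannot be told apart.

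Rhox5, the founding gene, had 18902 and 15838 counts in wild-type cells, against 5368 and 5701 in Smg6-deficient cells. These correspond to 135.0 and 118.3 CPM against 35.2 and 42.2 CPM. Both deficient libraries lay below both wild-type libraries, and the second deficient library was the higher of its pair. The mean went from 126.7 ± 11.8 to 38.7 ± 4.97 CPM, a log2 fold change of -1.71 (SE 0.12), or 3.27-fold lower. Rhox5 was the least lowered of the 5 and stayed the most abundant per length in every library.

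Rhox1, at the other end of the scale, had 5106 and 4429 counts in wild-type cells and 115 and 63 in Smg6-deficient cells. Its levels were 36.5 and 33.1 CPM against 0.75 and 0.47 CPM. The groups were far apart, and the deficient libraries differed from each other by 1.62 times. The log2 fold change was -5.82 (SE 0.22), or 56.5-fold lower.

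Rhox13, the male germ cell gene, had 3170 and 2867 counts in wild-type cells and 194 and 180 in Smg6-deficient cells. Its levels were 22.6 and 21.4 CPM against 1.27 and 1.33 CPM, with close replicates in both groups. The log2 fold change was -4.08 (SE 0.12), or 16.9-fold lower.

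Rhox6, one of the placental pair, had 4695 and 2944 counts in wild-type cells, against 807 and 534 in Smg6-deficient cells. Its levels were 33.5 and 22.0 CPM against 5.29 and 3.96 CPM. The wild-type libraries differed by 1.52 times, replicate 1 being higher, and the groups did not overlap. The log2 fold change was -2.59 (SE 0.24), or 6.0-fold lower. Rhox9, its near copy, had 3853 and 2487 counts in wild-type cells and 563 and 340 in Smg6-deficient cells. Its levels were 27.5 and 18.6 CPM against 3.69 and 2.52 CPM, with the higher library again replicate 1 in each group. The log2 fold change was -2.89 (SE 0.25), or 7.41-fold lower.

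**Figure D2:**
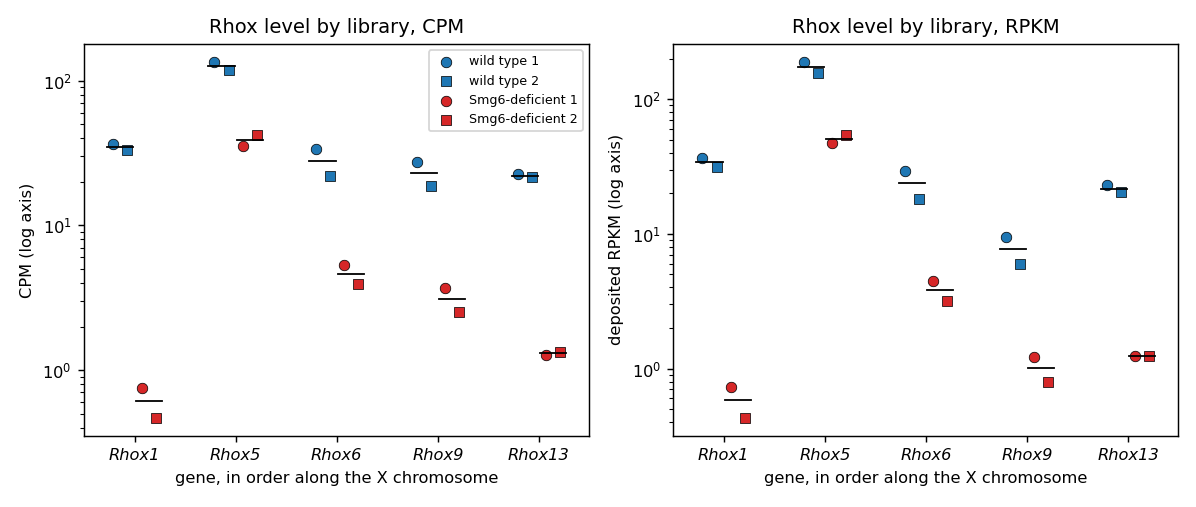
Level of each Rhox gene in each library (points) with the mean of each group (bars), as CPM (left, log axis) and as deposited RPKM (right, log axis), genes in order along the X chromosome. Every Smg6-deficient point lies below every wild-type point of its gene, from 35.2 and 42.2 against 135.0 and 118.3 CPM for Rhox5 to 0.75 and 0.47 against 36.5 and 33.1 CPM for Rhox1.

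The 5 genes were lowered by different amounts, and the order can be read against the spread of the libraries. Dividing each wild-type library by each deficient library gave ratios of CPM from 2.8 to 3.84 for Rhox5, 4.16 to 8.48 for Rhox6, 5.04 to 10.9 for Rhox9, 16.1 to 17.8 for Rhox13 and 43.9 to 78.2 for Rhox1. The ranges of Rhox6 and Rhox9 overlap, so these neighbours in the order are not separated. The other ranges do not overlap. The order was the same under every alternative fit except the test of log2(RPKM + 1), which placed Rhox6 below Rhox9.

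Levels of different genes can be compared only per length, for which the deposited RPKM were used. In wild-type cells Rhox5 stood at 172.7 ± 23.7 RPKM. Rhox1 stood at 33.98 ± 3.83 RPKM, Rhox6 at 23.8 ± 8 RPKM and Rhox13 at 21.7 ± 1.8 RPKM. The library values of Rhox6 (29.5 and 18.2 RPKM) enclose those of Rhox13 (23.0 and 20.4 RPKM), so these neighbours do not differ beyond their spread. Rhox9 stood lowest at 7.73 ± 2.45 RPKM.

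The place of Rhox9 depends on the gene length used. The length implied by its count and RPKM was 2586 bases, close to the 2488 bases covered by its 2 annotated transcripts together, the shorter of which has only 882 bases. Per kilobase of the shorter transcript, its CPM were 31.2 and 21.1 in wild-type cells, beside 33.2 and 21.8 for Rhox6 per kilobase of its 1010-base transcript. On that scale the pair was at nearly the same level. The other 4 genes had implied lengths between 0.84 and 1.0 times the annotated exon length.

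In Smg6-deficient cells the order of RPKM was different. Rhox5 again stood highest at 50.9 ± 4.65 RPKM, followed by Rhox6 at 3.84 ± 0.93, Rhox13 at 1.25 ± 0.0071, Rhox9 at 1.0 ± 0.30 and Rhox1 at 0.58 ± 0.21 RPKM. Rhox1 thus went from the second place to the last. The deficient libraries of Rhox9 (1.22 and 0.79 RPKM) and Rhox1 (0.73 and 0.43 RPKM) did not overlap, and those of Rhox13 (1.25 and 1.24 RPKM) lay just above Rhox9. The order of Rhox9 and Rhox13 depends on the length used. Per kilobase of its shorter transcript, Rhox9 stood at 4.18 and 2.855 CPM in deficient cells. Rhox13 stood at 1.45 and 1.52 CPM per kilobase of its transcript.

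Relative to Rhox5 in the same library, which needs no scaling between libraries, Rhox1 stood at 19.4% and 20% of the Rhox5 RPKM in wild-type cells and at 1.53% and 0.79% in Smg6-deficient cells. Rhox13 stood at 12.1% and 13.1% against 2.62% and 2.29%. Rhox6 stood at 15.6% and 11.6% against 9.43% and 5.87%, and Rhox9 at 4.99% and 3.85% against 2.56% and 1.46%. All 4 ratios were lower in both deficient libraries than in both wild-type libraries. Within the near-identical pair, the ratio of Rhox9 to Rhox6 CPM was 0.82 and 0.84 in wild-type and 0.70 and 0.64 in Smg6-deficient libraries.

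**Figure D3:**
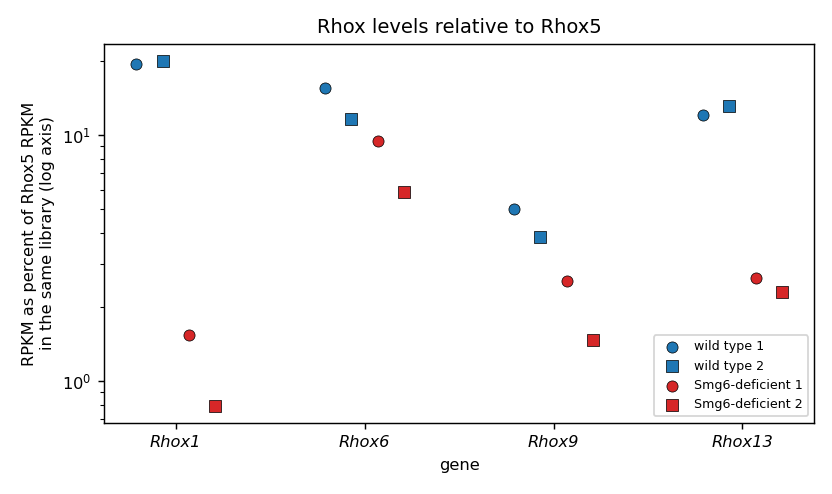
RPKM of Rhox1, Rhox6, Rhox9 and Rhox13 as a percent of the Rhox5 RPKM in the same library (log axis), 1 point per library. Rhox1 moves farthest, from 19.4% and 20% in wild-type cells to 1.53% and 0.79% in deficient cells, and Rhox6 least, from 15.6% and 11.6% to 9.43% and 5.87%.

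X-linked genes were lower as a class in the Smg6-deficient libraries, which bears on every value above. The median log2 fold change was -0.76 over tested X-linked genes and 0.031 over 19430 autosomal genes. The part of this X-wide difference in the Rhox values was not tested beyond the values that follow. Measured from the X-linked median, the 5 genes remained lower by between 0.95 (Rhox5) and 5.06 (Rhox1) on the log2 scale. A log2 fold change at or below that of Rhox5 was seen in 17.1% of tested X-linked genes and 4.05% of all tested genes. More strongly lowered X-linked genes numbered 44 for Rhox1, 70 for Rhox13, 105 for Rhox9, 111 for Rhox6 and 177 for Rhox5. These counts and the shares before them include Rhox genes. Among these are Rhox2a, Rhox2b and Rhox4g, with 0 counts in both deficient libraries, so the size of their change is known only as a bound. With libraries scaled on X-linked genes alone, the log2 fold changes still lay below 0, at -0.98 for Rhox5 and -1.86 for Rhox6.

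**Figure D4:**
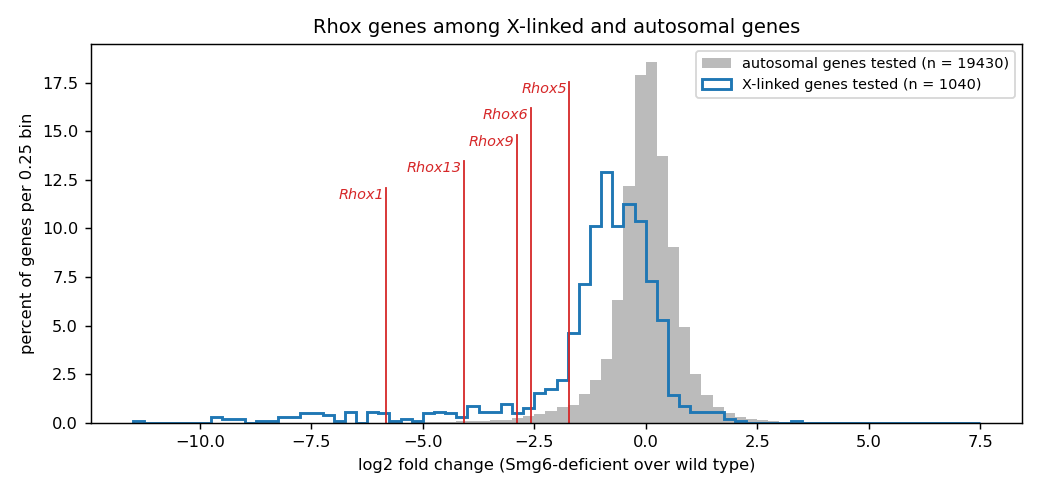
Distribution of log2 fold changes, Smg6-deficient over wild type (x axis), as percent of genes per bin (y axis), for 19430 autosomal (grey) and 1040 X-linked (blue line) tested genes. Red lines mark the 5 Rhox genes, from Rhox1 at -5.82 to Rhox5 at -1.71, all left of the X-linked median of -0.76.

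The rest of the cluster was barely expressed. Besides the 5 genes, 36 Rhox genes and pseudogenes had deposited values, and together they had 868 and 734 counts in wild type against 75 and 68 in deficient cells. Of the 36, 11 had 0 counts in all libraries and 17 had counts in wild-type libraries only. Many resemble each other closely, which leaves the count of a single copy uncertain. Only 8 passed the filter on low counts, and those with next to no counts in deficient cells passed through their wild-type level, so how many of them were called is not evidence of a direction.

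Among them, Rhox10, a single-name gene between Rhox9 and Rhox13, had 271 and 279 counts against 34 and 33, with a log2 fold change of -3.10 (SE 0.23, edgeR adjusted p = 0.00029). The pseudogene Rhox2-ps stood at 1.44 and 1.71 CPM against 0.21 and 0.163 CPM, at a log2 fold change of -3.07 (SE 0.26, edgeR adjusted p = 0.00046). The 8 Rhox2 copies had 254 and 119 counts against 0 and 1. Their ratio of levels was 392, with an exact 95% interval for counting error alone of 69.9 to 1.55e+04. Rhox2a, the most counted copy, had 111 and 51 counts against none and was at least 56.7-fold lower, taking a floor of 3 counts over the 2 deficient libraries. Rhox2b was at least 18.6-fold lower and Rhox4g at least 13.3-fold lower on the same floor. Rhox2d had 50 and 23 counts against 0 and 1. Rhox12 was the only one of the 36 with 5 or more counts that was higher in deficient cells, with 3 and 2 counts against 7 and 8. It was too low to test, and its exact 95% interval for the wild-type over deficient ratio, 0.0995 to 1.01, covered equal levels. It was singled out with its value known.

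Genes on either side of the cluster were mostly lower too. Of 32 tested non-Rhox genes within 1 Mb on each side, 25 were lower and 0 higher by edgeR, with a median log2 fold change of -1.06. No gene was higher by DESeq2, by limma-voom or at an unadjusted edgeR p under 0.05 either, beside a background on the X chromosome of 56.7% lower and 3.56% higher. Gm9 lies 2.8 kb outside Rhox1 and went from 39.2 and 32.4 CPM to 0.36 and 0.16 CPM, a log2 fold change of -7.07 (SE 0.29; adjusted p by edgeR 9.5e-05). The next tested gene outward, Rnf113a1, 21.3 kb from Rhox1, had a log2 fold change of -1.22 (SE 0.11, edgeR adjusted p = 0.00052). Without Gm9 the flanking genes lay between -2.65 and 0.20. The range thus includes genes lowered more than Rhox5 and Rhox6, such as Gm14569 at -2.65, named with its value known, and Gm9 was lowered more than any of the 5 Rhox genes. Upf3b, an NMD factor gene on the Rhox1 side, named with its value already known, went from 82.8 and 81.5 CPM to 45.3 and 49.2 CPM.

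Beyond Rhox13, the nearest tested genes were the pseudogene Zfp36l1-ps (log2 fold change -1.07, SE 0.48, edgeR adjusted p = 0.12), which passed the threshold without wild-type replicate 1, and Zbtb33. Zbtb33, the methyl-CpG-binding repressor Kaiso, had levels of 61.4 and 76.5 CPM against 45.6 and 44.1 CPM, at a log2 fold change of -0.62 (SE 0.12, edgeR adjusted p = 0.0068). Its fall was lost relative to the X-linked genes, where the log2 fold change was 0.11 (edgeR adjusted p = 0.40). Inside the cluster the only tested gene without a Rhox name was Dppa3-ps, a pseudogene, at -1.70.

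**Figure D5:**
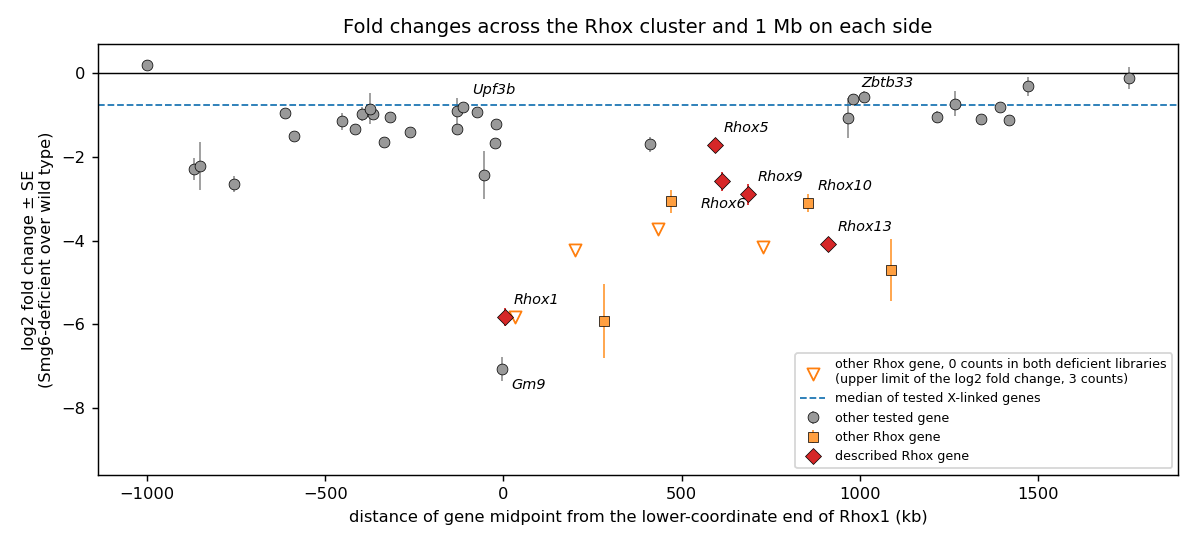
Log2 fold change ± SE (y axis) of tested genes against the distance of the gene's midpoint from the lower-coordinate end of Rhox1 in kb (x axis). The 5 described Rhox genes (red) lie between -1.71 and -5.82, flanking genes (grey) have a median of -1.06, the dashed line is the X-linked median of -0.76, Gm9 lies at -7.07, orange squares are other Rhox genes, and open triangles give upper limits for Rhox genes with 0 counts in both deficient libraries.

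The enzymes that write and remove DNA methylation were measured in the same libraries. Of 7 tested writers and cofactors, 2 rose and 1 fell (background 20.5% of all tested genes higher and 19.2% lower), with a median log2 fold change of 0.23 against 0.008 for all genes. The de novo methyltransferases Dnmt3b and Dnmt3a stood at 117.1 and 92.3 CPM against 344.7 and 283.5 CPM, and at 94.4 and 105.2 CPM against 255.1 and 223.7 CPM. Dnmt3b rose by 1.58 on the log2 scale (SE 0.15; adjusted p by edgeR 0.00056) and Dnmt3a by 1.26 (SE 0.10; adjusted p by edgeR 0.00037). Dnmt3c, the methyltransferase of male germ cells, fell from 0.21 and 0.19 CPM to 0.066 and 0.015 CPM (log2 fold change -2.25, edgeR adjusted p = 0.021), a call lost without Smg6-deficient replicate 2, with the DESeq2 test and on log2(RPKM + 1). Dnmt1, the maintenance enzyme, had a log2 fold change of 0.23 (edgeR adjusted p = 0.089), and its partner Uhrf1 -0.099 (edgeR adjusted p = 0.36); both were named with their values already known.

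Among 6 genes of demethylation, 1 rose and 0 fell by edgeR, beside 20.5% and 19.2% of all tested genes, and 1 fell at an unadjusted p under 0.05, while DESeq2 and limma-voom also called 0 lower. Tet1, a 5-methylcytosine oxidase, rose from 490.5 and 552.9 CPM to 778.2 and 926.9 CPM, by 0.71 on the log2 scale (SE 0.12; adjusted p by edgeR 0.0041). Tet2 had a log2 fold change of -0.033 (edgeR adjusted p = 0.84). Of 8 methyl-CpG readers, 3 rose and 3 fell, beside the same shares of all genes. Mbd2 had a log2 fold change of 0.42 (edgeR adjusted p = 0.011), a call lost without Smg6-deficient replicate 2.

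Repressors of germ-cell genes, which include the H3K9 methyltransferases and a Polycomb complex with E2f6, changed about as often as all tested genes (20.5% higher, 19.2% lower). Of 15 tested, 4 rose and 3 fell, with a median log2 fold change of 0.16. Ehmt2, an H3K9 methyltransferase, rose from 102.2 and 104.7 CPM to 202.4 and 218.3 CPM, by 1.02 on the log2 scale (SE 0.081; adjusted p by edgeR 0.00036), and its partner Ehmt1 rose by 0.51 (edgeR adjusted p = 0.0040). The X-linked Suv39h1 fell by 0.68 on the log2 scale (edgeR adjusted p = 0.0027), but stood at 0.046 (edgeR adjusted p = 0.68) with libraries scaled on X-linked genes.

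Other germ-cell genes were examined beside the Rhox genes, from lists chosen with earlier results known. They were X-linked germ-cell genes and autosomal ones known for promoter methylation. Of 25 tested X-linked ones outside the Rhox family, which include the flanking gene Gm9, 24 fell and 0 rose by edgeR. The background was 56.7% of tested X-linked genes lower and 3.56% higher. By DESeq2, by limma-voom or at an unadjusted edgeR p under 0.05, 0 of the 25 rose. Many of the 25, such as Xlr5a and Magea4, were close to 0 CPM in deficient cells. Such genes passed the filter on low counts through their wild-type level, so the count of 24 and the median are not evidence of a direction. The median log2 fold change of the 25 was -7.07, and -5.96 with the 3 genes at 0 in deficient cells set to their bound. Xlr5a, of a lymphocyte-regulated multicopy family, went from 8.24 and 7.63 CPM to 0.013 and 0.0074 CPM, and Magea4, of the melanoma antigen family, from 8.64 and 6.19 CPM to 0.046 and 0.044 CPM. Both families hold similar copies, whose single counts may be split.

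Of 23 autosomal ones, 16 fell and 1 rose, against 17.3% of tested autosomal genes lower, with a median of -0.68. Asz1, a piRNA pathway gene, went from 22.8 and 19.1 CPM to 0.42 and 0.27 CPM, a log2 fold change of -5.92 (SE 0.23; adjusted p by edgeR 8.6e-05), close to the value of Rhox1. Mael, also of that pathway, fell by 2.03 on the log2 scale (edgeR adjusted p = 9.5e-05), and Syce1, of the synaptonemal complex, fell by 1.77 (edgeR adjusted p = 0.00022). Of the 4 tested X-linked homeobox genes outside the cluster, 1 fell and 0 rose by edgeR, beside 56.7% and 3.56% of tested X-linked genes. DESeq2 called 2 lower and limma-voom 1, with 0 higher by either. At an unadjusted edgeR p under 0.05, 3 were lower and 1 was higher. The gene called lower by edgeR was Esx1, a placental homeobox gene. Esx1 went from 10.3 and 11.2 CPM to 6.36 and 5.98 CPM (log2 fold change -0.80, edgeR adjusted p = 0.0029). Its call was lost with scaling on X-linked genes.

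Markers of the labelled cell type were present in all libraries. Of 8 ES cell markers, 5 fell and 1 rose by edgeR, beside 19.2% and 20.5% of all tested genes. Their summed level was 3330 to 4084 CPM in wild-type and 2666 to 2675 CPM in Smg6-deficient libraries. Nanog fell from 725.7 and 554.5 CPM to 156.8 and 155.3 CPM. Pou5f1, named with its value known, fell less, from 936.4 and 845.5 CPM to 631.9 and 632.9 CPM (log2 fold change -0.49, edgeR adjusted p = 0.0062). Primordial germ cell markers were lower too. Of 8 tested, 7 fell and 0 rose by edgeR, beside 19.2% and 20.5% of all tested genes, and likewise by DESeq2 and limma-voom. At an unadjusted edgeR p under 0.05, 0 of these markers were higher. Their sum was 285.9 to 350.9 CPM against 148.1 to 165.8 CPM. Kit fell by 1.30, Dppa3 by 1.84 and Prdm1 by 1.87 on the log2 scale.

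Cell types that express Rhox genes in the animal, and others a culture may hold, were followed by their markers. Of 8 tested trophoblast markers, 5 rose and 3 fell by edgeR, beside 20.5% and 19.2% of all tested genes. Their sums were 70.8 to 99.4 CPM in wild-type and 228.5 to 229.6 CPM in deficient libraries. The keratins Krt8 and Krt18 rose and Eomes fell. Of 9 endoderm markers, 7 rose and 2 fell by edgeR, beside the same shares of all genes. Their sums were 29.5 to 38.8 CPM against 267.4 and 507.7 CPM in deficient replicates 1 and 2. On the log2 scale Cubn rose by 4.95 and Gata4 by 3.97. The 2 that fell, named with their values known, were Hnf4a (log2 fold change -1.13) and Afp (-1.69). Afp was low throughout, at 0.37 and 0.58 CPM against 0.12 and 0.18 CPM. Of the 5 Rhox genes, Rhox5 was higher in the second deficient library than in the first, at 42.2 against 35.2 CPM. Rhox13 was nearly equal in the pair (1.33 against 1.27 CPM, from 180 against 194 counts). Rhox1, Rhox6 and Rhox9 were lower in the second. Whether these differences go with the endoderm markers was not tested.

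Of 7 tested Sertoli and granulosa cell markers, 1 rose and 2 fell, beside 20.5% and 19.2% of all tested genes, with sums of 48.2 to 51.7 CPM against 56.7 to 59.8 CPM and Fshr at 0 in all libraries. Wt1 rose. Amh and Gata1 fell, and both of these lower calls were lost with scaling on X-linked genes, that of Amh also without Smg6-deficient replicate 2. Of 8 fibroblast markers, which feeder cells would carry, 2 rose and 0 fell by edgeR, beside 20.5% and 19.2% of all tested genes. DESeq2 called 4 of these markers higher, limma-voom 3 and an unadjusted edgeR p under 0.05 4, with 0 lower by each. Their sums were 731 to 992.2 CPM in wild-type and 1088 to 1193 CPM in deficient libraries, most of it from Col1a1 and Col1a2. The edgeR calls, Col1a1 and Pdgfrb, were both lost with upper-quartile scaling, library size alone, no filter and the stricter filter. Both were also lost with both RPKM tests and without Smg6-deficient replicate 1, and that of Col1a1 with DESeq2 size factors. The part of these cell types in the Rhox values was not tested.

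Genes whose pattern over the 4 libraries was nearest to each Rhox gene were found by the distance between log2(CPM + 0.5) values, each gene centred on its own mean, among 15070 genes with a mean of at least 1 CPM outside the family. Nearest to Rhox1 were Nxf3 on chromosome X (distance 0.23) and Asz1 on chromosome 6 (0.35). Nearest to Rhox5 were Hesx1 (0.038), a homeobox gene at 0.75 and 1.01 CPM in deficient cells, and Syce1 (0.12). Calcoco2, an autophagy receptor gene, was among the nearest to both Rhox6 (0.21) and Rhox9 (0.11), with levels of 81.0 and 56.6 CPM against 11.8 and 9.18 CPM. Aldh3a1 (0.099) was the closest to Rhox6 and Calb2 (0.17) the second to Rhox9. Nearest to Rhox13 were Xlr5b (0.062) and Xlr (0.13), both of which lay below the added 0.5 CPM in deficient cells. So did Asz1 and Aldh3a1, and Calb2 in 1 of the deficient libraries. For genes near or below 0.5 CPM the added 0.5 shrinks the difference: the log2 fold change of Aldh3a1 in the edgeR fit was -3.98, against -2.59 for Rhox6. That of Xlr5b was -9.59, against -4.08 for Rhox13, and that of Hesx1 -2.165, against -1.71 for Rhox5. Rhox1 itself lay at 0.75 and 0.47 CPM in deficient cells. Syce1 (-1.77) and Calcoco2 (-2.71), at higher levels, had fitted values closer to those of their Rhox genes. With only 4 libraries, many genes lie close together, and the distances describe likeness in the pattern over these libraries alone.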

How the data were processed

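Libraries were prepared with a TruSeq v2 kit from about 2.5 µg of total RNA and sequenced as single reads of 50 bases, per the labels' protocols; the kit does not mark strand. The submitters' processing notes name TopHat2 2.0.9 and the mm10 build. For the counter, annotation release and multiply aligned reads, the sources used here give nothing. The authors deposited a raw read count and an RPKM value for each of 37224 Ensembl genes per library, per the file headers. GENCODE M21 gave 95.2% of them a symbol.

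Counts were filtered with filterByExpr (minimum count 10), which all 5 Rhox genes passed, scaled by TMM and fitted with edgeR 4.0.16 (R 4.3.3), in a model of genotype alone. Benjamini-Hochberg adjustment ran over 20895 genes, with a threshold of 0.05. Alternatives were other scalings, among them TMM on X-linked genes, other filters, DESeq2 1.42.0, limma 3.58.1 (voom, or trend on RPKM with 1 or 0.1 added before the log2), a block for replicate number, and leaving out each library. The fit was also run on simulated counts with known changes, where the smallest changes were recovered only in part. Far fewer genes changed there than in these data, and no X-wide difference was simulated.

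The 5 genes and the gene lists were chosen with earlier results of these data known. Named besides them were all tested Rhox list genes, the 2 nearest tested genes on each side of the cluster, the nearest patterns, and from each list up to 3 called genes by lowest adjusted p (with under 2 called, up to 2 by highest level). Promoter windows came from RefSeq (GRCm38.p6), where 3 of the 5 genes matched. Intervals and floors cover counting error only. One gene that the naming rule selected is not reported here.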

Additional observations from a re-analysis of the deposited data

How the results depend on the processing

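The 5 Rhox genes kept a log2 fold change below 0 under all 15 alternatives, between -1.84 and -0.98 for Rhox5 and between -6.21 and -4.47 for Rhox1. Their median log2 fold change of -2.89 moved to -2.16 with scaling on X-linked genes and to -2.33 on log2(RPKM + 1). Scaling on X-linked genes shifted the median of all genes to 0.74 and called 14343 genes higher and 1164 lower, in place of 4285 and 4004; of X-linked genes it called 270 higher and 323 lower, in place of 37 and 590. Tests of log2(RPKM + 1) and log2(RPKM + 0.1) called 2700 and 2643 genes higher, with 22 X-linked genes higher in each. With 1 library left out, 2805 to 5578 genes were higher and 2300 to 4899 lower; 2805 higher were called without Smg6-deficient replicate 1, and 2336 and 2300 lower without Smg6-deficient replicates 1 and 2. Of X-linked genes, 498 to 637 were then lower and 20 to 64 higher: 21 and 20 without those same libraries and 64 without wild-type replicate 1. The Rhox median ranged from -3.18 to -2.56. The library left alone in its group is assumed to vary like the other group.

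The replicate number was also used as a block: 5074 genes were then higher and 4613 lower, and the Rhox median was -2.89. Deviations of same-numbered libraries correlated at 0.155 over 20895 genes, and with 2 pairs the numbers are not shown to pair the libraries.

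Of 50 other genes followed by name, Suv39h1 (0.046) and Zbtb33 (0.11) changed sign with scaling on X-linked genes, as did Tet2 (0.70), which also did without wild-type replicate 2 (0.079) and without Smg6-deficient replicate 1 (0.067); leaving out single libraries put Tet2 between -0.14 and 0.079. The causes were not tested. At these depths a gene with 0 counts in both deficient libraries may still hold up to 3 counts.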
